A study of Mus musculus with 12 samples.

Results

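Transcript levels in a clone of mouse fibroblasts carrying mutant β1 integrin, called YYFF, were compared after 8 passages on laminin (L8) and before any (L0). The comparison takes the 2 arrays titled YYFF L8 and the 2 titled YYFF L0, which are 4 of the 12 arrays of the series. All arrays hold RNA of embryonic fibroblasts of strain C57BL/6, labelled female and immortalized with the SV40 large T antigen, a viral protein that binds p53 and the retinoblastoma proteins. The genotype is labelled b1 integrin YYFF in these 4 arrays, as in the 2 arrays after 4 passages (L4), and B1 wildtype (WT) in the other 6, which cover the same passages. For each passage the cells were kept overnight on laminin in serum-free hybridoma medium, and normal medium was added the next day. After the last passage the cells were grown on plastic in medium with serum. There is 1 clone of each genotype. The stage labels step from E13.17 to E13.20 over these 4 arrays and were not used. L8 cells had also been longer in culture than L0 cells, so laminin and time cannot be told apart. The labels do not say whether the 2 arrays of a group come from separate cultures, so the spread behind each p-value may be only technical.

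Integrins are paired receptors that bind matrix proteins outside the cell and anchor the actin cytoskeleton inside it, and those with a β1 subunit are the main fibroblast receptors for laminin. In the YYFF form the tyrosines of the cytoplasmic tail through which adaptors dock are replaced by phenylalanine. Per the labels' protocols, such cells cannot complete cytokinesis, the physical separation of daughter cells, on a matrix that only β1 integrins bind. A failed division leaves a single cell that holds both sets of chromosomes.

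Values below are normalized log2 signals, changes are L8 minus L0 on that log2 scale, and ± is the standard error (SE) of a change from the limma model, with n = 2 arrays in each group. "Rose" and "fell" are used of genes with an adjusted p under 0.05 over the 8891 genes tested. The 4 arrays had total signals of 13197182 to 15699889, and 10392 to 11766 of 25697 probes were above background. The number of arrays limits the precision. The L8 arrays differed more from each other (median absolute difference of 0.20 across genes) than the L0 arrays (0.13). Of 11 measured fibroblast markers, 9 were above background on all 4 arrays, including Vim and Pdgfrb, while Thy1 was on none. Of 10 tested 3 fell, Col1a1 and Pdgfra among them (given below), and 2 rose, among them Dcn (3.43 ± 0.10). The summed fibroblast marker signal was 21144 to 21721 at L0 and 23739 to 24183 at L8. Of 8 leukocyte markers 7 were on none of the 4 arrays, and the other, Cd14, rose by 1.96 ± 0.15, with a summed marker signal of 327 to 346 at L0 and 703 to 784 at L8. Of 7 endothelial markers 6 were on none, and the other was above background on both L0 arrays and neither L8 array and fell. All 5 adipocyte markers were on none. Of 5 skeletal muscle markers 3 were on none and Acta1 fell (given below), with a summed signal of 1105 to 1143 at L0 and 531 to 537 at L8. Of 5 tested epithelial markers 3 rose. Krt14 was above background at L8 only (at least 1.75-fold higher), Krt8 was above background on 1 of the 4 arrays, and Krt19 rose by 0.75 ± 0.19. The calls of Krt8 and Krt19 were lost without 1 array (adjusted p up to 0.0659 and 0.107). The summed epithelial signal was 314 to 428 at L0 and 477 to 545 at L8. The summed signal of 6 neural markers was 2215 to 2332 at L0 and 489 to 640 at L8, and Map2, a microtubule protein gene, fell from 11.08 and 10.98 to 8.27 and 8.79, while 4 of the 6 were on none of the 4 arrays. Sox2, the remaining neural marker, was above background on all 4 arrays and did not pass. The part of these marker shifts in the results below was not tested. In bulk RNA, fewer cells of a kind and less RNA per cell cannot be told apart.

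In all, 3234 genes (36.4%) passed the threshold, 1520 higher at L8 (17.1%) and 1714 lower (19.3%), and the median change of all genes was 0.03. Of these calls 47.0% were rises, and under median scaling in place of quantile normalization 36.5% were (795 higher and 1386 lower). Falls were the larger changes: 676 genes (7.6%) fell and 394 (4.43%) rose by at least 2-fold. The L8 arrays also had fewer probes above background (11234 and 10392) than the L0 arrays (11766 and 11541), and the part of this in the counts was not tested. Above background on both L0 arrays and neither L8 array were 457 genes (5.14%), and the reverse held for 107 (1.2%). With any 1 of the 4 arrays left out, 1896 of the 3234 genes passed every time. The counts of each gene list below stand beside the shares of all genes, 17.1% higher and 19.3% lower.

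**Figure D1:**
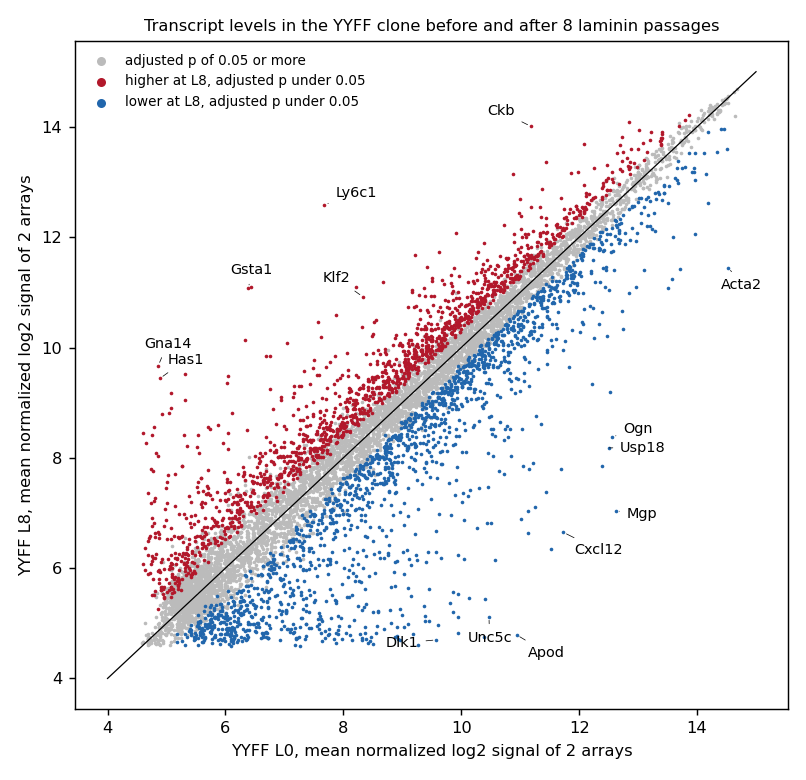
Mean normalized log2 signal of the 2 YYFF L8 arrays (vertical axis) against that of the 2 YYFF L0 arrays (horizontal axis), 1 point per gene for 8891 genes, coloured by the call at an adjusted p of 0.05, with the line of equality in black. More genes lie far below the line (676 fell by at least 2-fold) than far above it (394 rose by at least 2-fold).

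Most antiviral effectors and all tested interferon-inducible GTPases fell. Interferons are secreted signals of infection, and their receptors act through transcription factors, among them STAT2 and IRF9, on a promoter element, the ISRE, that switches on antiviral genes. Of 32 antiviral effector genes tested (of 44 listed) 27 fell and 1 rose, with a median of -1.77 (-1.74 with 9 genes set at the limit background allows). All 7 interferon-inducible GTPases tested (of 14 listed) fell, with a median of -2.25, and of 24 sensors and transcription factors (of 33 listed) 11 fell and 1 rose, with a median of -0.38.

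Among the transcription factors, Irf9 read 10.68 and 10.78 at L0 and 7.75 and 7.66 at L8, a fall of 3.02 ± 0.11. Both L8 arrays lay below both L0 arrays by more than any spread between replicates. Stat2 (-1.17 ± 0.26) and Irf1 (-0.87 ± 0.10) fell less. Irf7, which amplifies the response, was above background at L0 only and at least 4.14-fold lower at L8 (adjusted p = 2.15e-06). The RNA sensor Dhx58 was at least 4.63-fold lower (adjusted p = 3.91e-06). The kinase Tbk1, which acts upstream of interferon production, read 11.31 and 11.29 at L0 and 11.32 and 11.52 at L8 (adjusted p = 0.405). Socs3, which restrains cytokine receptors, was the member that rose, by 0.45 ± 0.11, and it missed the threshold without 1 of the arrays (adjusted p up to 0.0508).

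Effector genes that dropped below background at L8 were the RNA-sensing synthetase Oas2 (at least 7.01-fold lower, adjusted p = 2.27e-07), the ADP-ribosyltransferase Parp14 (at least 7.95-fold, 2.34e-07), Trim30a (at least 10.1-fold, 5.63e-08) and Uba7, the enzyme that activates ISG15 for conjugation (at least 5.6-fold, 1.02e-06). Bst2, which tethers budding virus particles, fell by 3.29 ± 0.33. Its L8 arrays differed from each other (7.29 and 8.53) and both lay below the L0 arrays (11.06 and 11.36). Ifit2 went the other way: it read 9.45 and 9.51 at L0 and 10.29 and 10.40 at L8, a rise of 0.86 ± 0.10. Ifit3 of the same family changed little, by -0.31 ± 0.09, and its call was lost without 1 array (adjusted p up to 0.107).

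The GTPases, a family that acts against the vacuoles of intracellular parasites, fell over a wide range. Irgm2 read 10.45 and 10.40 at L0 and 6.83 and 6.81 at L8 (-3.60 ± 0.15). Gbp3 went from 9.51 and 9.35 to 6.22 and 6.35 (-3.14 ± 0.15) and Gbp2 from 9.86 and 9.72 to 7.62 and 7.46 (-2.25 ± 0.15). Irgm1 fell by 0.96 ± 0.19 on its brightest probe and by 2.87 ± 0.18 on another that was above background on all 4 arrays. A dimmer Gbp2 probe, on 1 of the L0 arrays only, gave -0.72 ± 0.26 (adjusted p = 0.0607).

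Promoters of 4 of the genes that fell are printed to show the element through which interferon factors act. The ISRE core (GAAA, any 2 bases, then GAAA) was searched on both strands in RefSeq windows from 250 bases before to 50 after each start site (GRCm38.p6). It was present in 6 of 6 GTPases and 11 of 24 antiviral effectors (45.8%) with a window, against 266 of 7278 tested genes (3.65%). It was in 4 of 20 sensors and factors and 3 of 15 antigen presentation genes. The 120 bases before the start site follow, 5′ to 3′ on the gene's strand, with matches on either strand in capitals; matches that overlap run together.
Igtp (chr11:58199436-58199555, + strand): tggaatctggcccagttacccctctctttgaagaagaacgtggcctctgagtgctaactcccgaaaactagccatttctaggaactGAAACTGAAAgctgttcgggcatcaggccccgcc
Gbp3 (chr3:142559924-142560043, + strand): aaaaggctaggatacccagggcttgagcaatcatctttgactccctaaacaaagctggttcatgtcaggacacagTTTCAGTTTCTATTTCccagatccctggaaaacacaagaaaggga
Gbp2 (chr3:142620543-142620662, + strand): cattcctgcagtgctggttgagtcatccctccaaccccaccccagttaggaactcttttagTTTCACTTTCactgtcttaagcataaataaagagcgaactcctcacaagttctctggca
Isg15 (chr4:156200819-156200938, - strand): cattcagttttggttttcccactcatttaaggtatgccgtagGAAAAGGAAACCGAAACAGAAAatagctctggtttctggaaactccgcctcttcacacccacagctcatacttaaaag
Igtp and Gbp2 hold 1 match, Gbp3 holds 2 and Isg15 holds 3, within 120 bases of the start. A match is a description of the letters and not a measured binding site. Igtp, whose promoter stands first, read 10.02 and 9.87 at L0 and 5.70 and 5.36 at L8, where 1 of 2 arrays was above background. Isg15, the ubiquitin-like modifier, read 12.44 and 12.62 at L0 and 9.12 and 9.26 at L8.

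Genes that display peptides to cytotoxic T cells fell with them. Of 19 genes of MHC class I and antigen processing (of 24 listed) 14 fell and none rose, and their median was -1.31 (-1.28 when 7 genes are set at their limit). The peptide transporter subunit Tap2 read 9.10 and 9.11 at L0 and 6.21 and 6.12 at L8 (-2.94 ± 0.15). Tap1 was at least 3.8-fold lower (adjusted p = 2.83e-05) and the immunoproteasome subunit Psmb9 at least 6.29-fold lower (4.33e-07). The class I heavy chain H2-T23 fell by 2.75 ± 0.24, and H2-Q7 was at least 6.46-fold lower (0.000282), although related class I chains may bind the same probe. The chaperones of the same route that also serve other proteins did not pass: Calr gave -0.10 ± 0.34 (adjusted p = 0.839) and Pdia3 -0.04 ± 0.11 (adjusted p = 0.784).

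Chemokines split. Of 18 chemokine and cytokine genes tested (of 31 listed) 8 fell and 4 rose. Cx3cl1, a membrane-bound chemokine, fell by 2.85 ± 0.22, Ccl5 by 3.52 ± 0.25 and the growth factor of macrophages Csf1 by 1.67 ± 0.17. The decoy receptor Tnfrsf11b, which blocks bone resorption, was at least 7.45-fold lower (adjusted p = 2.41e-06). The monocyte attractants Ccl2 and Ccl7 rose by 1.12 ± 0.18 and 1.11 ± 0.19. Il18 rose by 1.27 ± 0.27. Among regulators of complement, Cd55, which dissolves the enzyme complexes of the cascade, was above background at L8 only and at least 8.77-fold higher (adjusted p = 2.02e-07), while Cd59a, which blocks its final pore, read 11.21 and 11.29 at L0 and 7.24 and 6.96 at L8 (-4.15 ± 0.14).

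**Figure D2:**
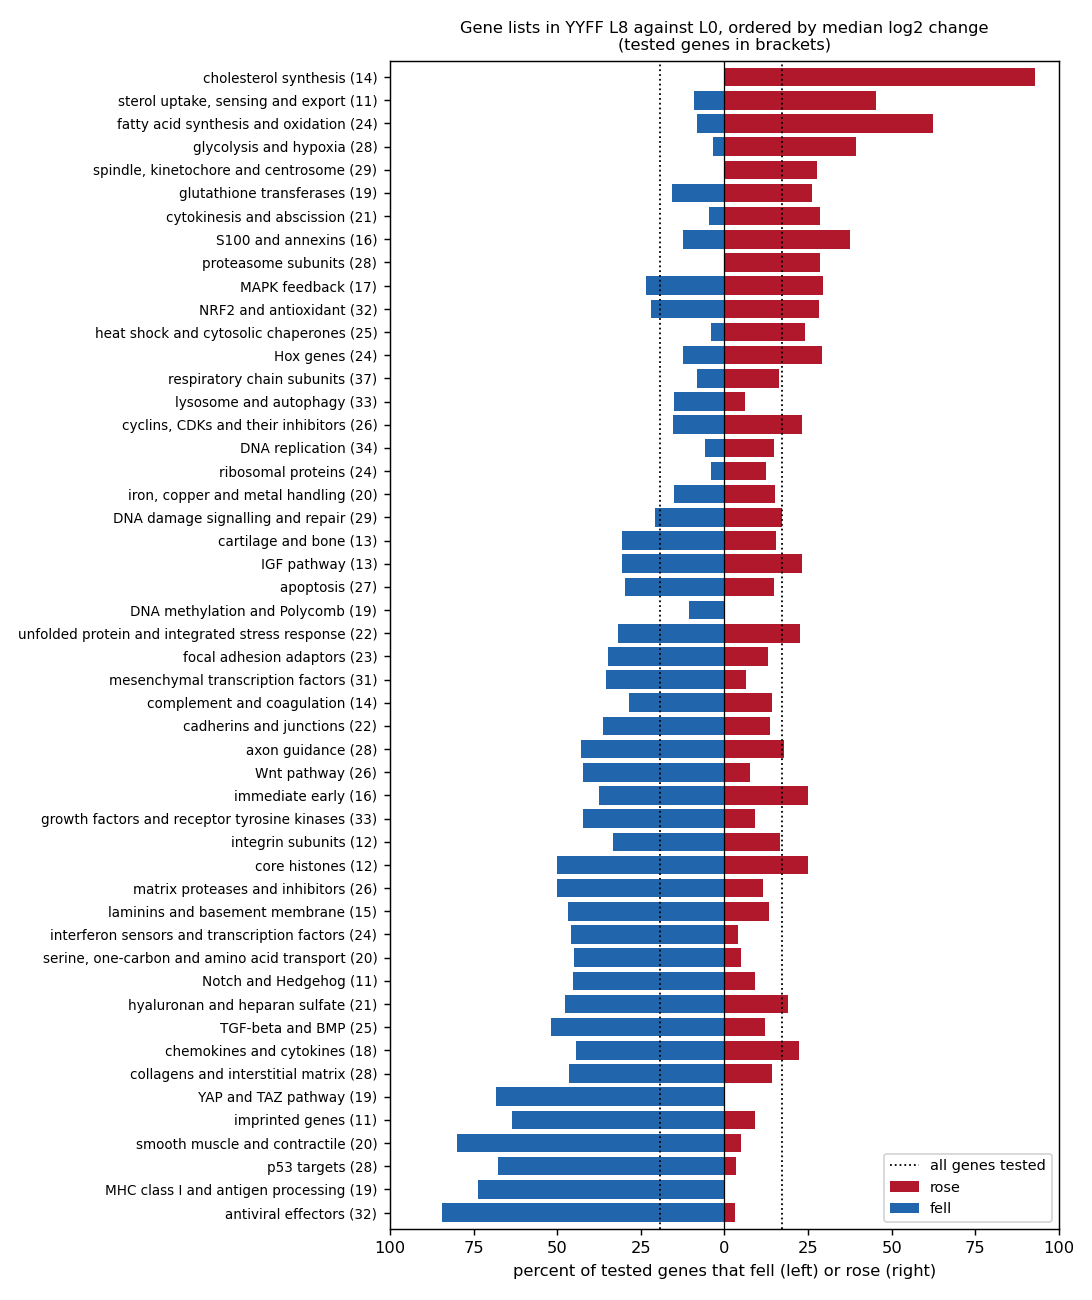
Percent of the tested genes of each list that fell (left, blue) or rose (right, red) in YYFF L8 against L0 at an adjusted p under 0.05, for lists with at least 10 tested genes, 1 such list not being shown, ordered by the median log2 change; dotted lines mark the share of all genes tested (19.3% fell, 17.1% rose). Antiviral effectors (27 of 32 fell) and cholesterol synthesis (13 of 14 rose) stand at the ends.

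Lipid synthesis genes rose. Cells make cholesterol from acetyl-CoA through mevalonate and squalene, and the factor SREBP2 controls the genes of the pathway. Of 14 cholesterol synthesis genes tested (of 21 listed) 13 rose and none fell, with a median of 1.64. The early enzyme Pmvk rose by 1.57 ± 0.35, Idi1 by 2.05 ± 0.35 (1 L0 array above background), Fdps from 11.38 and 11.47 to 13.37 and 13.37 (1.95 ± 0.20), the squalene epoxidase Sqle by 1.70 ± 0.12 and the demethylase Cyp51 by 1.70 ± 0.20. The exception, Sc5d, read 6.06 and 6.49 at L0 and 6.81 and 6.67 at L8 (adjusted p = 0.0518). Srebf2 itself rose by 1.17 ± 0.15 and its retention partner Insig2 by 1.45 ± 0.11. Scap, the escort that moves SREBP to the Golgi, gave -0.25 ± 0.17 (adjusted p = 0.308).

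The rise reached genes for the synthesis of unsaturated and long-chain fatty acids. Of 24 genes of fatty acid synthesis and oxidation (of 26 listed) 15 rose and 2 fell, with a median of 0.63. The desaturase Scd2 went from 6.67 and 7.43 to 10.45 and 9.74 (3.04 ± 0.29) and Scd1 from 9.52 and 9.73 to 11.61 and 11.87 (2.11 ± 0.14). Fads2 (1.63 ± 0.18), the elongase Elovl6 (1.21 ± 0.09) and the acyl-CoA synthetase Acsl3 (1.74 ± 0.10) rose too. Among acyl-CoA dehydrogenases of fatty acid breakdown, Acadl gave 0.62 and passed, but not without 1 array (adjusted p up to 0.207), while Acadm gave 0.23 ± 0.12 (adjusted p = 0.158) and Acadvl 0.18 ± 0.12 (adjusted p = 0.28). Of 11 genes of sterol uptake and sensing 5 rose, among them the sterol carrier Stard4 (0.97 ± 0.10), and 1 fell, the lipoprotein receptor Vldlr (-2.41 ± 0.14). An exact search for a classical sterol element in the promoter windows described above matched 0 of 12 cholesterol genes and 8 of 7278 tested genes.

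Genes of the contractile apparatus fell. Serum response factor, encoded by Srf, drives actin and smooth muscle genes through a promoter sequence called the CArG box, and its coactivators respond to actin assembly. Of 20 contractile genes tested (of 32 listed) 16 fell and 1 rose, with a median of -0.83. Srf read 11.44 and 11.28 at L0 and 10.21 and 10.24 at L8 (-1.13 ± 0.13). Acta2, smooth muscle actin, read 14.50 and 14.57 at L0 and 11.37 and 11.54 at L8 on its brightest probe (-3.08 ± 0.12), and its 3 dimmer probes fell by 4.87 to 5.54. Smaller falls were seen in the actin crosslinker Actn4 (-0.98 ± 0.16), tropomyosin Tpm2 (-0.99 ± 0.16) and the adhesion protein Vcl (-1.0 ± 0.11), and Acta1, skeletal actin, fell by 1.28 ± 0.16. The coactivator gene Mrtfb was the one that rose, above background at L8 only and at least 1.4-fold higher (adjusted p = 0.00323). Myl6, a light chain used in most cells, read 13.72 and 13.71 at L0 and 13.64 and 13.42 at L8 (adjusted p = 0.267). The promoter of Srf holds 2 CArG boxes, in capitals, and is printed because the gene is a target of its own product.
Srf (chr17:46556163-46556282, - strand): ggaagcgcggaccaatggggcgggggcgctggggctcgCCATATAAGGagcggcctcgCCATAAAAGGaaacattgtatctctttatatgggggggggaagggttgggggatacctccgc
The CArG box was found on either strand in 4 of 18 contractile genes with a window and in 118 of 7278 tested genes (1.62%). Of the 4 contractile genes, Srf and Vcl fell, while Myl6 and Cnn2 (-0.37 ± 0.18) did not pass. Acta2 was not among the genes with a box, and the part of the box in the falls was not tested.

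YAP and TAZ are coactivators that enter the nucleus in spread and tense cells and act through TEAD factors. Of 19 genes of their pathway tested, targets and regulators together (of 25 listed), 13 fell and none rose, with a median of -0.64 (-0.45 when 3 genes are set at their limit), and the count was 8 without YYFF L0 replicate 1. The secreted target Ccn2 read 14.52 and 14.50 at L0 and 13.61 and 13.59 at L8 (-0.91 ± 0.09). Ccn1 fell by 0.98 ± 0.16, Amotl2 by 1.09 ± 0.20 and the kinase gene Nuak2 by 1.41 ± 0.10. Yap1 gave -0.32 ± 0.12 (adjusted p = 0.058) and Wwtr1, which encodes TAZ, -0.35 ± 0.20 (adjusted p = 0.211).

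Immediate early genes, switched on within minutes of growth factor addition, moved both ways. Of 16 tested (of 23 listed) 6 fell and 4 rose. Egr1 read 13.49 and 13.54 at L0 and 11.02 and 11.14 at L8 (-2.43 ± 0.12), Egr2 fell by 2.34 ± 0.18, Junb by 1.45 ± 0.14 and Fos by 2.43 ± 0.19, with Fos above background on 1 of the L8 arrays. Klf2, which is linked to quiescence, read 8.32 and 8.34 at L0 and 10.96 and 10.88 at L8, a rise of 2.59 ± 0.12. Klf4 (1.35 ± 0.23) and Jund (1.78 ± 0.34) rose too. The dual-specificity phosphatases, which switch off MAP kinases, split by member. Dusp6, specific to ERK, fell by 1.62 ± 0.10. Dusp1 rose by 1.51 ± 0.10, Dusp8 by 1.20 ± 0.23 and Dusp16 by 0.74 ± 0.10, and Dusp4 was above background at L8 only (at least 12.3-fold higher, adjusted p = 5.63e-08). Of its dimmer probes 1 rose and the other gave 0.77 ± 0.27 (adjusted p = 0.0532).

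The targeted gene Itgb1 was read by a pair of probes, which measure its transcript and not the YYFF change. The brighter Itgb1 probe gave 9.20 and 8.91 at L0 and 8.85 and 8.80 at L8 (-0.23 ± 0.15, adjusted p = 0.273). The dimmer Itgb1 probe gave 8.83 and 8.93 at L0 and 6.75 and 8.16 at L8, and its change of -1.42 ± 0.38 passed (adjusted p = 0.0184). The probes disagree on the call, and the L8 arrays of the dimmer one lay far apart.

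Other integrin subunits moved both ways. Of 12 tested (of 20 listed) 4 fell (33.3%, against 19.3% of all genes) and 2 rose (16.7%, against 17.1%). The collagen-binding subunit Itga11 was above background at L0 only and at least 5.49-fold lower at L8 (adjusted p = 9.86e-07), and Itga1, also collagen-binding, was at least 1.48-fold lower (0.00123). Itgb4, the laminin-binding partner of α6, was at least 3.31-fold lower (4.57e-05). The fibronectin-binding Itga5 fell from 9.23 and 9.13 to 7.53 and 8.05 (-1.38 ± 0.16). The laminin-binding Itga7 was above background at L8 only and at least 5.02-fold higher (1.3e-06), and Itgb7, best known from lymphocytes, read 6.12 and 5.95 at L0 and 9.37 and 9.34 at L8. The laminin-binding Itga3 (-0.03 ± 0.16, adjusted p = 0.903) and the vitronectin-binding Itgb5 (0.16 ± 0.17, adjusted p = 0.516) did not pass.

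Adaptors that link β1 tails to actin inside the cell moved both ways: of 23 focal adhesion adaptors (of 33 listed) 8 fell, 3 rose and 12 did not pass, with a median of -0.16. Kindlin-2, encoded by Fermt2, binds the integrin tail, and it fell from 12.58 and 12.45 to 11.07 and 11.04 (-1.46 ± 0.12). The integrin-linked kinase Ilk (-0.95 ± 0.13), its partners Parva (-0.79 ± 0.16) and Lims2 (-2.74 ± 0.11) and the scaffold Pdlim5 (-1.26 ± 0.18) fell. Paxillin, Pxn, a core adaptor, rose by 1.28 ± 0.22 (a probe near background gave 0.28 ± 0.30, adjusted p = 0.522), and the kinase gene Src (0.84 ± 0.13) and Itgb1bp1, which encodes an inhibitor that binds the β1 tail (0.65 ± 0.12), rose too. Zyx, a marker of mature adhesions, read 14.51 and 14.45 at L0 and 14.62 and 14.38 at L8 (adjusted p = 0.919).

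Genes of the extracellular matrix fell more often than they rose. Of 28 genes of collagens and interstitial matrix (of 44 listed) 13 fell and 4 rose, with a median of -0.59 (-0.42 when 5 genes are set at their limit). Col1a1, the main fibrillar collagen chain, read 11.42 and 11.48 at L0 and 9.46 and 9.96 at L8 (-1.74 ± 0.15). Tenascin C, Tnc, fell by 1.64 ± 0.20 and Thbs1 by 2.84 ± 0.43, its L8 arrays at 8.29 and 6.63 both below those of L0 (10.41 and 10.20). The relative Thbs2 did the reverse, above background at L8 only and at least 11.1-fold higher (adjusted p = 3.16e-05). Tnxb (2.68 ± 0.23, with 1 L0 array above background), Fbln1 (1.75 ± 0.16) and the crosslinking enzyme Loxl4 (1.37 ± 0.12) rose. Biglycan, Bgn, gave -0.49 ± 0.12, lost without 1 array (adjusted p up to 0.0744).

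Of 15 genes of laminins and basement membrane (of 26 listed) 7 fell and 2 rose. The agrin gene Agrn fell from 12.24 and 12.21 to 9.45 and 9.22 (-2.88 ± 0.11), Col4a5 by 2.18 ± 0.18 and the laminin chain Lamb2 by 0.65 ± 0.11, while Col4a1 rose by 0.68 ± 0.14. Matrix proteases and inhibitors fell in 13 of 26 cases (of 37 listed) and rose in 3. The metalloproteinase gene Adam19 was above background at L0 only, with 9.55 and 9.37 there and 5.1 and 5.0 at L8 (adjusted p = 1.66e-07). The plasminogen activator inhibitor Serpinb2 was at least 12.8-fold lower (adjusted p = 2.29e-07), and Mmp23 fell by 3.13 ± 0.13. The aggrecanase Adamts5 rose by 2.14 ± 0.18. Timp2, a broad inhibitor, gave 0.06 ± 0.13 (adjusted p = 0.741).

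Among 21 genes of hyaluronan and heparan sulfate (of 31 listed) 10 fell and 4 rose. The hyaluronan synthase Has1 read 4.90 and 4.88 at L0, below background, and 9.43 and 9.44 at L8, while the synthase Has2 gave 0.30 ± 0.15 (adjusted p = 0.146). The receptor of hyaluronan Cd44 rose by 1.36 ± 0.10 on the brightest probe and rose on 3 dimmer ones, while another dim probe gave 0.38 ± 0.18 (adjusted p = 0.145). Among proteoglycans at the membrane, Sdc3 fell by 2.51 ± 0.12, and Sdc1 (1.11 ± 0.24) and Gpc1 (0.92 ± 0.10) rose. The sulfotransferase Hs3st3a1 fell from 8.70 and 8.76 to 6.47 and 6.70 (-2.14 ± 0.12).

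Secreted signals and their receptors fell more often than they rose. Of 33 growth factor and receptor tyrosine kinase genes (of 50 listed) 14 fell and 3 rose, with a median of -0.29. The PDGF receptor gene Pdgfra, a fibroblast marker, read 9.51 and 9.21 at L0 and 5.65 and 4.97 at L8 (-4.05 ± 0.22), where 1 array was above background. The EGF receptor gene Egfr fell from 10.15 and 10.06 to 7.39 and 7.23 (-2.80 ± 0.12). Fgfr2 was at least 3.16-fold lower (adjusted p = 1.68e-05; a dimmer probe gave -0.80 ± 0.29, adjusted p = 0.0595). Among ligands, Vegfc was at least 4.56-fold lower (3.4e-07), and pleiotrophin, Ptn, fell from 11.47 and 11.41 to 7.76 and 7.0 (-4.06 ± 0.22). Pdgfc rose by 2.00 ± 0.17 and Vegfb by 1.05 ± 0.12. Fgf7 read 12.26 and 12.30 at L0 and 12.10 and 12.20 at L8 (adjusted p = 0.358).

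Of 26 Wnt pathway genes (of 40 listed) 11 fell and 2 rose, with a median of -0.28 (-0.06 when 13 genes are set at their limit). The ligand Wnt5a was at least 9.32-fold lower (adjusted p = 3.38e-08) and its receptor Ror2 fell by 1.02 ± 0.11. The agonist Rspo2 fell from 9.58 and 9.72 to 6.50 and 5.88 (-3.46 ± 0.20) and the secreted antagonist Sfrp2 was at least 9.78-fold lower (7.65e-06). The nuclear effectors Tcf7l1 (-1.04 ± 0.13) and Tcf7l2 (-1.65 ± 0.12) fell, while Ctnnb1, which encodes β-catenin, gave -0.18 ± 0.12 (adjusted p = 0.273). A dimmer Tcf7l2 probe gave -0.4 ± 0.34 (adjusted p = 0.418). Frat2, which encodes an inhibitor of the kinase GSK3, rose from 6.19 and 5.58 to 8.51 and 8.68 (2.71 ± 0.19).

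In the TGF-β and BMP family 13 of 25 genes tested (of 36 listed) fell and 3 rose, with a median of -0.49. The ligand Tgfb2 fell by 0.89 ± 0.17, Ltbp3, which stores it in the matrix, by 0.93 ± 0.10 and the intracellular inhibitor Smad6 by 1.33 ± 0.11. A dimmer Ltbp3 probe gave -0.52 ± 0.5 (adjusted p = 0.481). Tgfbi, a matrix target of the pathway, rose by 1.51 ± 0.18 and Fstl1 by 1.01 ± 0.12. Of 11 Notch and Hedgehog genes (of 25 listed) 5 fell and 1 rose: the receptor Notch1 fell by 1.52 ± 0.13 and the targets Hes1 and Hey1 by 1.56 ± 0.12 and 3.29 ± 0.15. Guidance genes, known from growing axons, fell in 12 of 28 cases (of 42 listed; 42.9%, against 19.3% of all genes) and rose in 5 (17.9%, against 17.1%). Of semaphorins, Sema3a fell from 10.46 and 10.46 to 7.55 and 7.40 (-2.99 ± 0.11), Sema3f by 2.20 ± 0.12, and Sema4f was above background at L8 only (at least 10.4-fold higher, adjusted p = 1.35e-07). The netrin receptor Unc5b fell by 2.18 ± 0.14 and the ephrin ligand Efnb1 by 1.96 ± 0.16. The rising guidance genes numbered 2 without YYFF L8 replicate 2, L0 replicate 1 or L0 replicate 2.

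Most tested targets of p53 fell. p53 is a stress sensor that halts the cycle or starts cell death, and the T antigen that all groups carry binds it. Of 28 targets tested (of 35 listed) 19 fell and 1 rose, with a median of -0.86 (-0.73 when 2 genes are set at their limit). With the dimmest detected probe of each gene 14 fell, with a median of -0.59. Mdm2, the ubiquitin ligase that degrades p53, read 12.99 and 12.96 at L0 and 11.24 and 10.93 at L8 (-1.88 ± 0.12), another Mdm2 probe fell by 1.59 ± 0.13, and a probe near background gave 0.29 ± 0.25 (adjusted p = 0.415). Ccng1 fell from 12.84 and 12.86 to 10.93 and 11.02 (-1.87 ± 0.10), Gadd45a by 2.00 ± 0.17, Zmat3 by 1.73 ± 0.19 and Ephx1 by 1.16 ± 0.09. The cell death mediator Bbc3, which encodes PUMA, read 9.62 and 9.56 at L0 and 9.5 and 9.51 at L8 (adjusted p = 0.677), and Plk3 gave -0.02 ± 0.15 (adjusted p = 0.915). Ccng2, the member that rose (0.80 ± 0.24), missed the threshold without 1 array (adjusted p up to 0.108). The pro-death gene Bcl2l11, which encodes BIM, was at least 3.07-fold lower (adjusted p = 8.54e-05; a dimmer probe gave -0.54 ± 0.35, adjusted p = 0.272), and Bad rose by 0.64 ± 0.10.

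Cell cycle genes changed mostly by small amounts. Among 26 cyclins, kinases and inhibitors (of 33 listed) 6 rose (23.1%, against 17.1% of all genes) and 4 fell (15.4%, against 19.3%). Ccnd2, a D cyclin, read 12.42 and 12.53 at L0 and 9.77 and 10.66 at L8 (-2.26 ± 0.25) and Ccnd1 fell by 0.72 ± 0.11. Dimmer Ccnd1 probes gave -0.64 ± 0.1 (adjusted p = 0.00147) and -0.3 ± 0.22 (adjusted p = 0.341). The phosphatase Cdc25b rose by 1.51 ± 0.19 and the inhibitor Cdkn2d by 1.09 ± 0.12. Cdk1 gave 0.12 ± 0.14 (adjusted p = 0.554). Of 34 DNA replication genes (of 42 listed) 5 rose (14.7%, against 17.1% of all genes) and 2 fell (5.88%, against 19.3%). Of those 5, none passed under median scaling, and 1 or 2 rose without YYFF L8 replicate 1, L0 replicate 1 or L0 replicate 2. Mcm4 read 13.48 and 13.46 at L0 and 13.22 and 13.36 at L8 (adjusted p = 0.248).

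The genes that carry out mitosis and cytokinesis were measured too. Of 29 spindle and kinetochore genes (of 38 listed) 8 rose and none fell, with a median of 0.29, among them Birc5, a subunit of the complex that guides the cleavage plane (0.49 ± 0.09), the checkpoint gene Mad2l1 (0.68 ± 0.12) and the centromere histone Cenpa (0.50 ± 0.10). The count was 5 without YYFF L8 replicate 1 or L0 replicate 1, 4 without L0 replicate 2 and 2 under median scaling. Of 21 cytokinesis genes (of 30 listed) 6 rose and 1 fell, with 3 rises without YYFF L0 replicate 2. The midbody protein gene Cep55 rose from 7.83 and 7.58 to 8.58 and 9.16 (1.16 ± 0.25), and Vps4a, an ATPase that severs the last bridge between daughter cells, rose by 0.49 ± 0.10. Septin6 rose by 0.93 ± 0.19, with 0.35 ± 0.21 on a dimmer probe (adjusted p = 0.236). Anln, a scaffold of the contractile ring, gave 0.16 ± 0.11 (adjusted p = 0.329). Kif23 of the central spindle gave -0.32 ± 0.10 and Diaph1, a formin, 1.20 ± 0.35, and both calls were lost without 1 array (adjusted p up to 0.124 and 0.101).

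Of 12 genes of core, variant and linker histones (of 21 listed) 6 fell and 3 rose; 1 rose without YYFF L8 replicate 1 or L0 replicate 2, 2 without L0 replicate 1, and 0 under median scaling or with the 4 arrays fitted alone. The linker histone H1f2 fell from 13.56 and 13.61 to 11.98 and 12.04 (-1.58 ± 0.09), H2bc4 by 0.88 ± 0.16 and the damage-marking H2ax by 0.88 ± 0.09, while the variant H2az1 rose by 0.54 ± 0.11. Some histone genes share much of their sequence, so their probes may read several of them. Of 28 proteasome subunits (of 31 listed) 8 rose and none fell. Psmd14 rose by 0.80 ± 0.13 and Psma7 by 0.77 ± 0.15. The count was 5 without either L8 array, 4 without YYFF L0 replicate 1, 3 without L0 replicate 2 and 2 under median scaling. Ribosomal proteins were near the median of all genes, at 0.04 over 24 tested.

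Detoxifying enzymes moved both ways, beside rises of 17.1% and falls of 19.3% among all genes. Glutathione transferases couple glutathione to toxic compounds. Of 19 tested (of 22 listed) 5 rose (26.3%) and 3 fell (15.8%). Gsta1 read 6.46 and 6.33 at L0 and 11.02 and 11.12 at L8 and Gsta2, its close relative, which may bind the same probe, was above background at L8 only. Gstp1 rose by 1.22 ± 0.11 and Mgst3 by 1.02 ± 0.23. Of the theta class, Gstt3 fell from 9.58 and 9.61 to 7.69 and 7.57 (-1.96 ± 0.19) and Gstt1 was at least 2.66-fold lower (adjusted p = 7.94e-05). Among 32 NRF2 and antioxidant genes (of 39 listed) 9 rose (28.1%) and 7 fell (21.9%). The aldehyde dehydrogenase Aldh3a1 rose from 5.79 and 5.62 to 8.64 and 8.49 (2.86 ± 0.13), Srxn1 by 1.00 ± 0.10 and Sod3 by 1.66 ± 0.19. The peroxidase Gpx8 fell by 0.80 ± 0.12. The falls numbered 4 without YYFF L8 replicate 2 or L0 replicate 1.

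Of 28 glycolysis and hypoxia genes (of 34 listed) 11 rose and 1 fell, with a median of 0.36, and 7 rose without YYFF L8 replicate 1 or L0 replicate 1. Pgam1 rose by 1.27 ± 0.13, Tpi1 by 0.68 ± 0.09 and Pdk1, which turns pyruvate away from the mitochondria, by 0.86 ± 0.16, while the neuronal enolase Eno2 fell by 1.51 ± 0.17. Ldha gave 0.17 ± 0.10 (adjusted p = 0.232). Genes of amino acid supply fell in 9 of 20 cases (of 24 listed) and rose in 1: the glycine carrier Slc6a9 fell by 1.19 ± 0.10 and the transaminase Gpt2 by 1.00 ± 0.20, and Got1 rose by 1.43 ± 0.25. Of the integrated stress response, Trib3 fell by 1.51 ± 0.19 and Ppp1r15a by 1.32 ± 0.14, while its factor Atf4 gave -0.03 ± 0.16 (adjusted p = 0.893). The small heat shock protein gene Hspb1 rose from 8.90 and 9.51 to 11.31 and 12.05 (2.47 ± 0.51) and Hspb8 by 1.51 ± 0.23. S100 and annexin genes rose in 6 of 16 cases (of 20 listed) and fell in 2, led by S100a1 (2.00 ± 0.18) and Anxa6 (-1.39 ± 0.12).

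Genes that record the position or lineage of a fibroblast moved both ways, beside rises of 17.1% and falls of 19.3% among all genes. Hox genes keep a memory of the body axis, and of 24 Hox and cofactor genes (of 35 listed) 7 rose (29.2%) and 3 fell (12.5%). Hoxa7 rose from 8.30 and 8.46 to 9.90 and 9.87 (1.5 ± 0.12), Hoxd8 by 0.76 ± 0.13, and Hoxb4 was above background at L8 only (at least 3.24-fold higher, adjusted p = 6.75e-06). Its neighbour in the same cluster, Hoxb7, was at least 1.89-fold lower (7.8e-07), and Hoxd10 fell by 1.41 ± 0.12. Of 31 mesenchymal transcription factors (of 46 listed) 11 fell (35.5%) and 2 rose (6.45%). Lhx9 fell from 8.86 and 8.91 to 6.05 and 5.31 (-3.20 ± 0.20, with 1 L8 array above background), Gata6 by 1.82 ± 0.15, Nr2f1 by 1.40 ± 0.12 and Nfib by 1.18 ± 0.14. Twist2 rose from 10.95 and 10.79 to 13.08 and 13.22 (2.28 ± 0.10), while Twist1 gave -0.20 ± 0.16 (adjusted p = 0.366). Of 11 imprinted genes (of 27 listed), which are read from a single parental copy, 7 fell (63.6%) and 1 rose (9.09%). Snrpn was at least 5.32-fold lower (adjusted p = 1.3e-07; a dimmer probe gave -0.38 ± 0.33, adjusted p = 0.426), Grb10 fell by 0.70 ± 0.10, and Igf2r and Gnas did not pass (0.27 ± 0.13 and -0.08 ± 0.13).

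Cell contact genes fell in 8 of 22 cases (of 38 listed) and rose in 3. The desmosome gene Pkp2 read 9.19 and 9.25 at L0 and 6.57 and 6.67 at L8 (-2.60 ± 0.11) and Vcam1 fell by 1.65 ± 0.14. Cldn3, which encodes a tight junction protein of epithelia, was above background at L8 only and at least 8.08-fold higher (adjusted p = 1.03e-06), beside the keratins given above. The gap junction gene Gja1 read 14.29 and 14.11 at L0 and 14.29 and 14.15 at L8 (adjusted p = 0.898).

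Of genes in no list, the largest rises at L8 included Ckb, the creatine kinase of brain, from 11.23 and 11.14 to 14.01 and 14.01 (2.83 ± 0.09), Eps8, an actin-capping adaptor (2.90 ± 0.19), Ramp2, a receptor partner of adrenomedullin (2.88 ± 0.20), Itgbl1 (3.09 ± 0.38) and the growth cone protein gene Gap43 (2.79 ± 0.22). Neurl1a rose by 2.73 ± 0.17. The orphan receptor gene Rorb was above background at L8 only, with 5.22 and 4.93 at L0 and 9.08 and 9.28 at L8 (adjusted p = 8.69e-08), as was Gfpt2, which feeds glucose into hexosamines (at least 10.2-fold higher, adjusted p = 6.65e-05). Among the falls were the adhesion protein Flrt3, from 10.96 and 11.07 to 7.10 and 6.68 (-4.12 ± 0.15), Lgals3bp (-3.91 ± 0.11) and the potassium channel subunit Kcnab1 (-3.72 ± 0.16; dimmer probes gave -3.41 ± 0.30 and -0.71 ± 0.24). Above background at L0 only were the endothelin receptor Ednrb (at least 25.8-fold lower, 6.17e-08), the ion transport regulator Fxyd6 (at least 19-fold, 1.24e-08), Tmem176b (at least 19-fold, 1.47e-07) and the zinc finger gene Zfp521 (at least 15-fold, 6.26e-08). Dimmer Ednrb probes, also above background at L0 only, fell too.

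**Figure D3:**
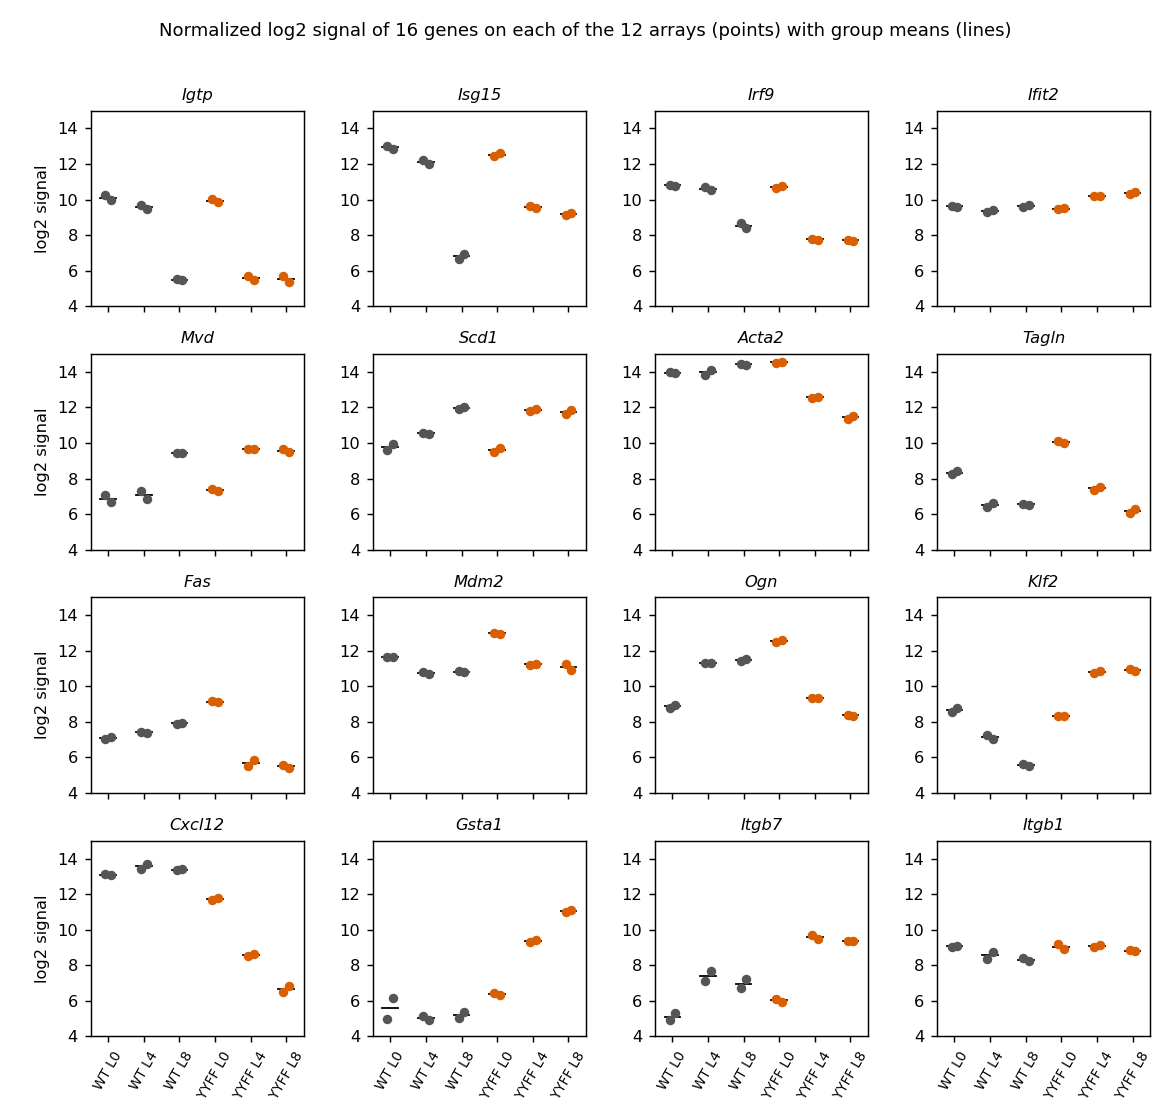
Normalized log2 signal of 16 genes on each of the 12 arrays (points, WT in grey and YYFF in orange) by clone and number of laminin passages, with the mean of each group as a line. In YYFF, Igtp, Irf9, Mvd and Fas did not pass between L4 and L8, while Cxcl12 and Gsta1 did.

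The WT clone, taken through the same passages, shares no array with this comparison and shows which changes also occurred with normal β1 integrin. In WT 3212 genes passed (36.1%), 1640 higher (18.4%) and 1572 lower (17.7%). Of the 1520 genes that rose in YYFF 489 rose in WT (32.2% of the YYFF list and 29.8% of the WT list), and of the 1714 that fell 560 fell in WT (32.7% and 35.6%). A further 190 rose in YYFF and fell in WT, and 343 fell in YYFF and rose in WT. The difference between the changes of the clones passed for 2831 genes (31.8%), 1276 (14.4%) with the higher change in YYFF and 1555 (17.5%) with the lower. Of the 1070 genes changed at least 2-fold in YYFF, 390 passed the same way in WT, 497 did not pass in WT and 183 passed the opposite way, and the difference itself passed for 799 (74.7%).

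Lipid genes rose in both clones. In WT 13 of 14 cholesterol synthesis genes rose, with a median of 1.60 beside 1.64 in YYFF, and the change was higher in YYFF for 0 of them and lower for 2. Of 24 fatty acid genes 15 rose and 2 fell in WT, with a median of 0.59. The clones differed more often there: the change was higher in YYFF for 5 of the 24 and lower for 6, beside 14.4% and 17.5% of all genes. Fdps rose by 2.35 in WT and 1.95 in YYFF, a difference of -0.40 ± 0.28 (adjusted p = 0.312), and Scd1 by 2.18 and 2.11, a difference of -0.07 ± 0.20 (adjusted p = 0.823). Antiviral effectors fell in both clones, 25 of 32 in WT with a median of -2.32, and the change was higher in YYFF for 16 of 32 and lower for 7. Isg15 fell by 6.13 in WT and 3.34 in YYFF (adjusted p of the difference 1.06e-05), Ifit3 by 3.75 in WT, and Gbp3 by 4.78 and 3.14 (adjusted p of the difference 0.000453). Trim30a went the other way, with -0.16 in WT (adjusted p of the difference 9.59e-07). Antigen presentation genes had the lower change in YYFF in 8 of 19 cases and the higher in 0. Tapbp fell by 2.00 in YYFF and gave -0.21 in WT (adjusted p of the difference 0.00163). A dimmer Tapbp probe gave -0.72 ± 0.31 in YYFF and did not pass (adjusted p = 0.109).

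The change was lower in YYFF for 10 of 20 contractile genes (higher for 1), 6 of 23 focal adhesion adaptors (higher for 3) and 15 of 33 growth factor and receptor genes (higher for 7), beside 17.5% and 14.4% of all genes. Acta2 gave 0.46 in WT (adjusted p of the difference 1.01e-06), Vcl -0.21 (0.00454), Fermt2 -0.21 (0.00052), Ilk 0.18 (0.00141) and Egfr 0.02 (3.99e-06). Several genes went opposite ways. Ogn, osteoglycin, read 12.50 and 12.63 in YYFF L0 and 8.41 and 8.34 in YYFF L8, against 8.79 and 8.97 in WT L0 and 11.44 and 11.53 in WT L8. Klf2 rose by 2.59 in YYFF and fell by 3.08 in WT (adjusted p of the difference 2.52e-07). Dusp1 (1.51 and -1.68) and Cd44 (1.36 and -1.16) did likewise. Itga11 fell in YYFF and rose by 3.79 in WT, and Rspo3, Sfrp2, Epha3 and Hs3st3a1 also fell in YYFF and rose in WT. Histone genes rose in 7 of 12 cases in WT and fell in none, while 6 of them fell in YYFF.

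**Figure D4:**
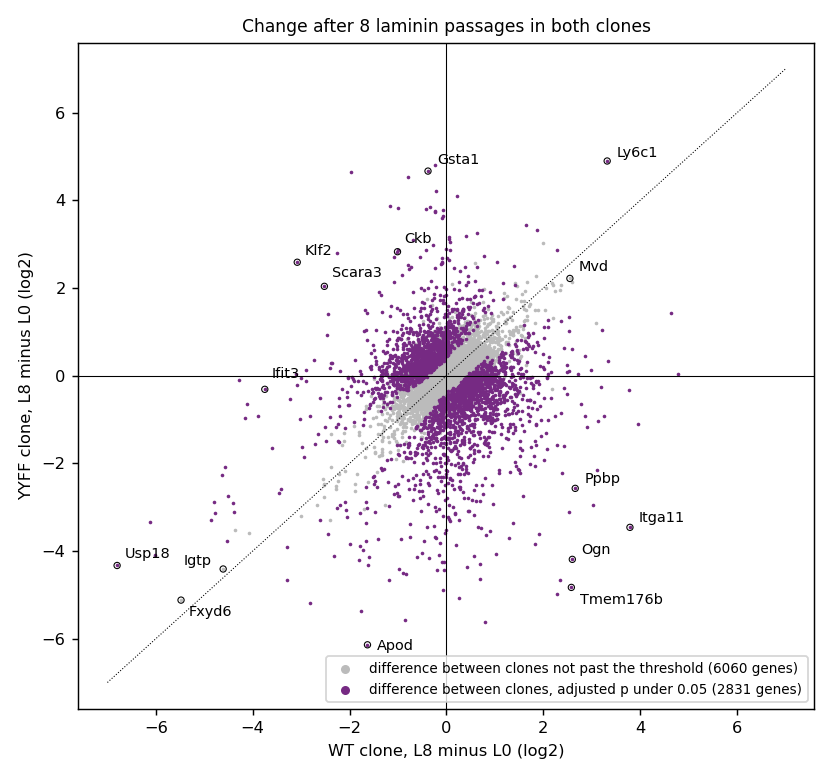
Change from L0 to L8 (log2) in the YYFF clone (vertical axis) against that in the WT clone (horizontal axis) for 8891 genes, with equal change as a dotted line and genes whose changes differ between the clones (2831 at an adjusted p under 0.05) in purple. Mvd and Igtp lie near the dotted line, while Ogn, Itga11 and Klf2 lie in the quadrants of opposite change.

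The 2 YYFF arrays after 4 passages lie between the start and the end state; L4 is compared here with L8 only. Between L4 and L8 128 genes passed (1.44%), 36 higher at L8 (0.405%) and 92 lower (1.03%). This count was unstable: 0 in limma fitted to these 4 arrays alone (1082 at an unadjusted p under 0.05), 35 and 45 without YYFF L4 replicate 1 or 2, and 213 without YYFF L8 replicate 2. None of 14 cholesterol synthesis genes, 24 fatty acid genes, 7 GTPases and 24 interferon sensors and factors passed between L4 and L8, while 2 of 32 antiviral effectors were higher at L8 and 3 of 20 contractile genes and 1 of 28 p53 targets lower. Irf9 read 7.81 and 7.73 at L4 (change to L8 -0.06 ± 0.11), Gbp3 6.25 and 5.80 (0.26 ± 0.15), Scd1 11.77 and 11.91 (-0.10 ± 0.14), Mdm2 11.21 and 11.25 (-0.14 ± 0.12) and Srf 10.24 and 10.25 (-0.02 ± 0.13). Some genes went on changing. Cxcl12, the chemokine that retains blood stem cells, read 11.67 and 11.78 at L0, 8.53 and 8.63 at L4 and 6.47 and 6.83 at L8 (L8 minus L4 -1.93 ± 0.14). Acta2 read 12.54 and 12.58 at L4 (-1.11 ± 0.11) and Ogn 9.36 and 9.32 (-0.97 ± 0.10). Gsta2 rose by 2.15 ± 0.12 between L4 and L8, and Gap43 by 1.55 ± 0.22. Cish, an inhibitor of cytokine receptors, and Cdo1, which oxidises cysteine, fell late. Cish read 8.77 and 8.74 at L0, 8.18 and 8.05 at L4 and 6.31 and 6.25 at L8 (-1.84 ± 0.13 from L4), and Cdo1 8.83 and 8.80, 8.74 and 8.64, and 6.88 and 6.49 (-2.0 ± 0.19). Serping1, the C1 inhibitor, was highest at L4, with 5.13 and 5.50 at L0, 8.05 and 8.00 at L4 and 5.64 and 6.09 at L8.

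Changes were uneven along the genome. Gene order was taken from RefSeq (GRCm38.p6). On chromosome 19, 103 of 326 tested genes rose (31.6%, against 17.1% of all genes) and the median change was 0.20. On chromosome 16, 70 of 273 rose (25.6%). Falls were most frequent on chromosome 7, with 200 of 679 genes (29.5%, against 19.3%) and 47 rises (6.92%), and on chromosomes 14 (85 of 296, 28.7%) and 17 (119 of 439, 27.1%). Chromosome 7 had a median of -0.16 in YYFF and -0.05 in WT.

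Within each chromosome, the stretches of 25 neighbouring genes with the highest and the lowest median change were picked, and some are given here. The 25 neighbouring genes from Pdlim1 to Cox15 on chromosome 19 had a median change of 0.76, with 18 higher and none lower, while the same genes had a median of 0.08 in WT. On chromosome 17 the genes from Hnrnpm to Tap2, a stretch that ends in the MHC, had a median of -0.64 (14 lower, none higher; -0.15 in WT). On chromosome 7 those from AI987944 to Scaf1 had -0.59 (15 lower, none higher; -0.13 in WT), and on chromosome 14 those from Gpalpp1 to Ednrb -0.56. The lowest stretch of chromosome 4, from Lzic to Nphp4, had -0.50 (13 lower and 3 higher, 0.11 in WT). Chromosome 19 also held a low stretch, from Smc3 to Csf2ra, with -0.45 (11 lower and none higher, 0.04 in WT). The highest stretch of chromosome 13, from H1f2 to Pxdc1, had 0.54 and was 0.35 in WT. Each stretch is the highest or lowest of its chromosome and carries no test.

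**Figure D5:**
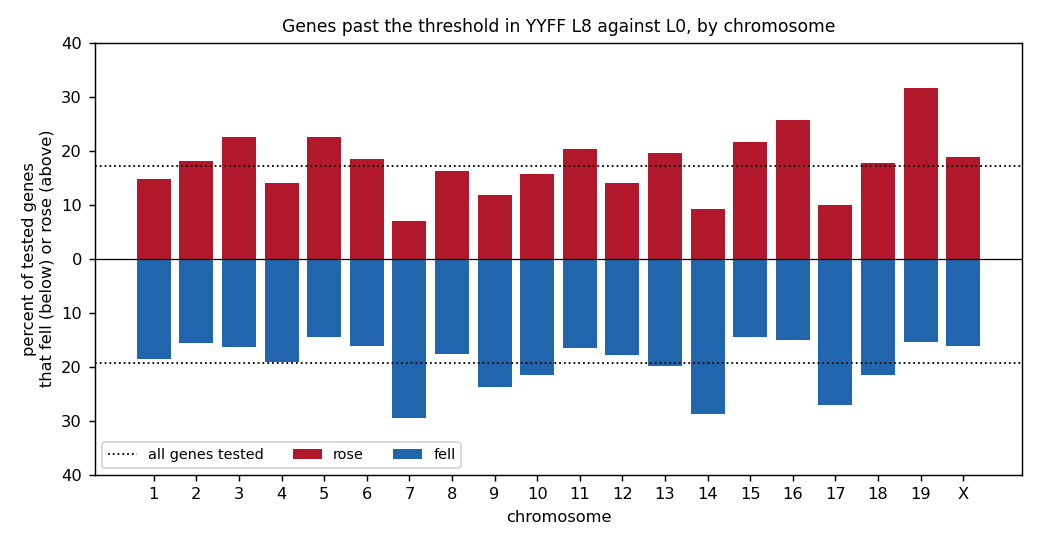
Percent of the tested genes of each chromosome that rose (above 0, red) or fell (below 0, blue) in YYFF L8 against L0 at an adjusted p under 0.05; dotted lines mark all genes tested (17.1% and 19.3%). Chromosome 19 has the largest share of rises (31.6%) and chromosome 7 of falls (29.5%).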

How the data were processed

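Biotin-labelled RNA was read on 12 Illumina bead arrays, and the deposited table, per the file headers, holds for each array a non-normalized signal intensity and a detection p-value per probe. The authors' processed table was used only as an alternative, on a log2 scale. Of its 12 columns 11 share a distribution, and that of WT L0 replicate 2 equals the non-normalized signal. The scanner software is not given in these sources.

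Intensities were background-corrected and quantile-normalized with neqc of limma 3.58.1 (R 4.3.3), with the background inferred from the detection p-values and an offset of 16. Probes with a detection p under 0.05 on at least 2 of 12 arrays were kept (12974), and each gene was represented by its brightest such probe, giving 8891 genes. Of 25697 probes 23978 have 1 gene symbol, 1719 none and 0 several, and 23962 symbols were updated by gene ID through RefSeq. The limma model had 1 mean per group over all 12 arrays, and p-values were adjusted by Benjamini-Hochberg over all genes. Where a group had no array above background, a fold is given as "at least", against the higher of the dim probe's own signal and the lowest signal among probes above background on each array. The script was tested on simulated data. Alternatives changed the normalization, background, filter, probe, arrays and replicate block, and left out each array.

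Named genes were the largest changes that held with each array left out, genes above background in 1 group only, the largest differences between clones and from L4, and from each gene list the largest changes, the exceptions and the brightest that did not pass. Genes singled out beyond this rule, such as markers, were chosen after their values were seen. The samples compared and the gene lists were chosen with earlier results of these data known. Replicate numbers in titles and descriptions match in 3 of 6 groups. Deviations of same-numbered arrays correlated at 0.143 between YYFF L0 and L8. Over the 15 pairs of groups they correlated at 0.025 to 0.354 by title numbers, above 0.1 in 13, and at -0.354 to 0.232 by description numbers. Since the labels name no shared source, the numberings disagree and not every pair exceeds 0.1, the numbers were not taken to pair the samples. Results on 1 further gene list and a few genes are not reported here.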

Additional observations from a re-analysis of the deposited data

Results flagged for a closer look

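The change from L0 to L8 differed between the clones, by limma's test of the difference itself, for 2831 genes. The values below are that difference, the YYFF change minus the WT change on the log2 scale, for genes with large fitted differences in each direction, all with an adjusted p of 0.000151 or less.

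Among genes with the lower change in YYFF, several fell in YYFF and rose in WT. Tmem176b differed by -7.41, the integrin subunit gene Itga11 by -7.25, Angptl7 by -6.99, the matrix proteoglycan gene Ogn by -6.79 and Ecrg4 by -5.99. Emb differed by -5.65, the sulfotransferase gene Hs3st3a1 by -5.25, the chemokine gene Ppbp by -5.23, the growth factor gene Ptn by -5.07, Arhgap24 by -4.72 and the microtubule regulator gene Stmn2 by -4.61. Of these, Tmem176b, Itga11, Angptl7, Ecrg4 and Emb were above background on neither YYFF L8 array, and Itga11 and Ecrg4 also on neither WT L0 array, so their differences are fitted against background, are no bounds and have no rank. Aldh3b1 (-4.18) and Cbr2 (-4.16) fell by less in YYFF than they rose in WT. Cxcl12 differed by -5.34 and did not pass in WT, and Mgp, which restrains calcification, differed by -4.73 and fell in both clones.

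With the higher change in YYFF were Klf2 (5.67), the scavenger receptor gene Scara3 (4.56), Ramp2 (3.87), Fez1 (3.84), the creatine kinase gene Ckb (3.83), Ccdc68 (3.79), Stc2 (3.40), Sdcbp2 (3.33) and Frat2 (3.27), all of which rose in YYFF and fell in WT, with Klf2 above background on 1 of 2 WT L8 arrays. The guidance receptor gene Plxna2 differed by 4.22 and did not pass in WT. Ifit3 differed by 3.44, through its fall of 3.75 in WT.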

How the results depend on the processing

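The count for YYFF L8 against L0 stayed within 1.5 times the 3234 reported under every alternative run, from 2181 under median scaling to 3595 with a replicate block by title numbers (3013 by description numbers), and was 2248 to 2943 with 1 array left out. Median scaling gave 2181 (2064 of them among the 3234), 1753 for the clone difference (607 higher and 1146 lower, against 2831) and 2068 for WT (against 3212); the cause was not tested. With 1 array left out the clone difference gave 2145 to 2798 and WT 2165 to 2479. The replicate block gave 3135 (titles) and 2559 (descriptions) for the clone difference and 3555 and 3010 for WT. The comparison of L8 with L4 was the least stable, against 128 reported: 69 under median scaling, 83 with the dimmest detected probe of each gene, 175 and 90 with the blocks, 35 to 213 with 1 array left out, and 0 in limma fitted to these 4 arrays alone, where 1082 genes had an unadjusted p under 0.05 (1449 in the fit to 12 arrays). The naming rule picks 685 genes, of which 470 passed and 317 kept their call under every alternative. With the dimmest detected probe 6 of the 685 changed sign, of which Hoxa13 and Lamp2 had not passed: Hoxa13 (0.52), Ifnar2 (0.15), Lamp2 (-0.84), Mdm2 (0.29), Parp2 (0.11) and Slc38a2 (0.25). The precision is limited by 2 arrays a group, and levels near background give only bounds.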
